A study of Mus musculus with 10 samples.

Results

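The genes described here encode the aminoacyl-tRNA synthetases, the enzymes that join each amino acid to its matching tRNA. They were taken from the expression table by gene symbol, as a list drawn up with earlier results of these data known: 20 genes for the enzymes of the cytosol and 15 for those of the mitochondrion, 35 of the 24370 genes listed. Lars2 was left out because its entry also collects reads of ribosomal RNA. All 35 genes passed the filter on low values and were tested among 14706 genes.

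The cells were mouse embryonic stem cells, and poly(A)-selected RNA was sequenced from 10 libraries in 5 groups of 2. WT cells were cultured without transfection. Usp17le OE cells carried a plasmid for Usp17le, a deubiquitinase gene, and Dux KD cells carried a plasmid for a hairpin that targets Dux, which encodes a transcription factor active in the embryo's early divisions; each was selected with puromycin. In the combined groups the same constructs were given in sequence: Usp17le OE-Dux KD cells were Usp17le OE cells given the hairpin, and cells labelled Dux KD-Usp17le OE were Dux KD cells given the plasmid. The labels name the J1 line for every group, while the study's methods name E3 cells, grown on fibroblast feeders, for knockdown of Usp17l genes and for overexpression, and J1 cells, grown on gelatin, for other work that does not include these groups by name, so the line behind each group is not settled. The overexpression vector was FLAG-tagged pcDNA3.1, and whether the Dux KD cells are 1 clone is not given in the sources used here. No empty plasmid or control hairpin was analysed here, so a comparison with WT also holds transfection and selection. Nothing in the labels says that the 2 libraries of a group came from separate cultures, so p-values measure the spread between libraries, which may be technical.

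A synthetase recognises an amino acid and the tRNAs that carry its codons, and the charged tRNA is handed to an elongation factor that brings it to the ribosome. In mammals 8 of the cytosolic enzymes (those for aspartate, glutamate and proline, isoleucine, lysine, leucine, methionine, glutamine and arginine) sit in 1 large complex held together by the scaffold proteins of Aimp1, Aimp2 and Eef1e1. The mitochondrial enzymes are encoded by separate nuclear genes, mostly marked by a 2 at the end of the symbol, and charge the tRNAs of the mitochondrion's own genome. Kars and Gars are known to supply the enzymes for lysine and glycine to both compartments. Many cytosolic synthetase genes are known targets of Atf4, the transcription factor of the amino acid and stress response, which binds with C/EBP partners to an element whose core reads TGATGNAA.

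Because Atf4 is a known regulator of part of the cytosolic genes, the window from 250 bases before to 50 bases after each gene's start was searched for this element on both strands, in RefSeq sequences of build GRCm38.p6. A window was matched for 13 of the 20 cytosolic and 13 of the 15 mitochondrial genes. The form TGATGCAA lay in 4 of the 13 cytosolic windows (Aars, Iars, Tars and Yars), and the wider form TGATGNAA, of which TGATGCAA is a case, in 5, with Gars added. Neither form lay in a window of any of the 13 mitochondrial genes, among them Mars2, Ears2 and Aars2, the last with 2 windows. Across all 32851 windows, 0.895% held TGATGCAA and 3.969% held TGATGNAA. Counted by gene, 1.032% and 4.511% of 27025 genes did. Most windows of any kind thus held neither form, and 0 of 13 mitochondrial genes is close to the share of all genes. Each stretch below is 30 bases of the gene's own strand with the element in capitals, where TTGCATCA and TTTCATCA are the element read from the opposite strand. The Aars stretch shown holds the wider form only, and its other copy is not shown. The stretches are shown because they hold the matches found among the cytosolic genes. Only a match of letters is meant, not a bound site.
Aars, chr8:111033840-111033869, plus strand: agcgggtcactTTTCATCAgagcgctctga
Gars, chr6:55037960-55037989, plus strand: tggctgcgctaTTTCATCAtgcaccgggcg
Iars, chr13:49682126-49682155, plus strand: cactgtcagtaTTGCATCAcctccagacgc
Tars, chr15:11399655-11399684, minus strand: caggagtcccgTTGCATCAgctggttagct
Yars, chr4:129189895-129189924, plus strand: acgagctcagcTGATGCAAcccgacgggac

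The element lay 30 bases before the start in Gars and 15 before it in Tars, and just after it in Yars (4 bases), Iars (8 bases) and the Aars copy shown (10 bases). Beside these cytosolic genes, 100 bases upstream of Mars2, the mitochondrial gene with the largest rise in Usp17le OE cells, are shown from base -100 to base -1. The window of Mars2 held no match, like most windows of all genes, and G and C made up 70.0% of this stretch.
Mars2, chr1:55237077-55237176, plus strand: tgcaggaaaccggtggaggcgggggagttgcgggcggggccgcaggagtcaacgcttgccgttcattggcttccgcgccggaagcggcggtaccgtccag

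Libraries held 32188285 to 50457228 reads, and the replicates of a group correlated at 0.984 to 0.987 across genes. Usp17le stood at 28.7 and 35.6 TPM, a read count corrected for gene length and library total, in the Usp17le OE libraries, and at 11.1 and 10.6 where the hairpin followed the plasmid. WT cells gave 1.77 and 0.649, and the hairpin alone 0.466 and 0.424. The pair labelled Dux KD-Usp17le OE had 0.941 and 1.63, inside the WT range, which goes against the label; no direction drawn from these libraries can be read as one of Usp17le overexpression. Reads of Dux numbered 80 and 75 with the plasmid and 15 and 16 with plasmid then hairpin. They numbered 5 and 12 in WT, 4 and 0 with the hairpin alone, and 6 and 2 in the pair labelled Dux KD-Usp17le OE. With so few reads in WT, a knockdown of Dux against WT cannot be judged from these libraries. The 10 embryonic stem cell markers summed to 9238 to 12758 scaled TPM. Of 15 fibroblast feeder markers, 9 or 10 were under 1 TPM in both libraries of each group, Lum, Dcn, Col3a1, Postn and Twist2 were near 0, and the sum of all 15 ran from 113 to 115 in WT, 32.8 to 35.2 with the plasmid, 75.1 to 77.0 with the hairpin alone, 49.1 to 49.6 with plasmid then hairpin and 109 to 110 in the pair labelled Dux KD-Usp17le OE. Markers of primitive endoderm summed to 155 in both Usp17le OE-Dux KD libraries and to 88.3 to 104 in the others. The part of either marker list in the results below was not tested.

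Levels are given as scaled TPM, the deposited TPM divided by a factor per library (0.806 to 1.21) that sets the typical gene to the same level in every library. This matters because genes under 1000 bases took 39.5% to 43.2% of all TPM in WT and Usp17le OE but 28.5% to 35.7% in the 3 groups with the Dux hairpin. The synthetase transcripts are 1587 to 6528 bases long. After scaling, the 1588 tested genes under 1000 bases had a median change of -0.11 for the plasmid, -0.80 for the hairpin alone (each against WT) and -0.67 for the hairpin in Usp17le OE cells. The part of this difference by length in the results was not tested beyond a length correction, whose counts are given where they moved by over 1.5 times. Differences were tested with limma on log2(scaled TPM + 0.1) and called at a Benjamini-Hochberg adjusted p under 0.05 over all 14706 genes, and a difference in log2 units is called a change below. With TPM as deposited, without scaling, the median gene changed by 0.26 for the plasmid, 0.38 for the hairpin and 0.56 for plasmid then hairpin, each against WT, and by 0.29 for the hairpin in Usp17le OE cells, so counts under both scales are given.

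Cytosolic synthetase genes were expressed at far higher levels per length than mitochondrial ones. Mean levels over the 10 libraries ran from 75.4 scaled TPM for Wars to 653 for Kars among the cytosolic genes, and from 2.04 for Wars2 to 92.1 for Iars2 among the mitochondrial genes. Iars2 was the only mitochondrial gene above the lowest cytosolic one. Even the least abundant, Wars2, had at least 128 reads in every library. Summed over the 20 cytosolic genes the level was 4259 and 4305 in WT, 2966 and 3002 with the plasmid, 5174 and 5313 with the hairpin alone, 4386 and 4403 with plasmid then hairpin, and 4737 and 4856 in the pair labelled Dux KD-Usp17le OE. No groups overlapped in this sum, with Usp17le OE lowest and Dux KD highest. The 15 mitochondrial genes summed to 375 and 382, 404 and 422, 407 and 403, 382 and 372, and 380 and 387 in the same order of groups, a narrower range in which several groups overlapped. The cytosolic sums of TPM as deposited were 3432 and 3489 in WT, 2798 and 2991 with the plasmid, 5323 and 5209 with plasmid then hairpin, and 4707 to 5790 in the other hairpin groups. The mitochondrial ones were 302 and 309 in WT and 378 to 464 in all other libraries, so on that scale WT stood alone as the lowest. In these bulk samples, fewer cells of a type and less RNA per cell cannot be told apart.

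**Figure D1:**
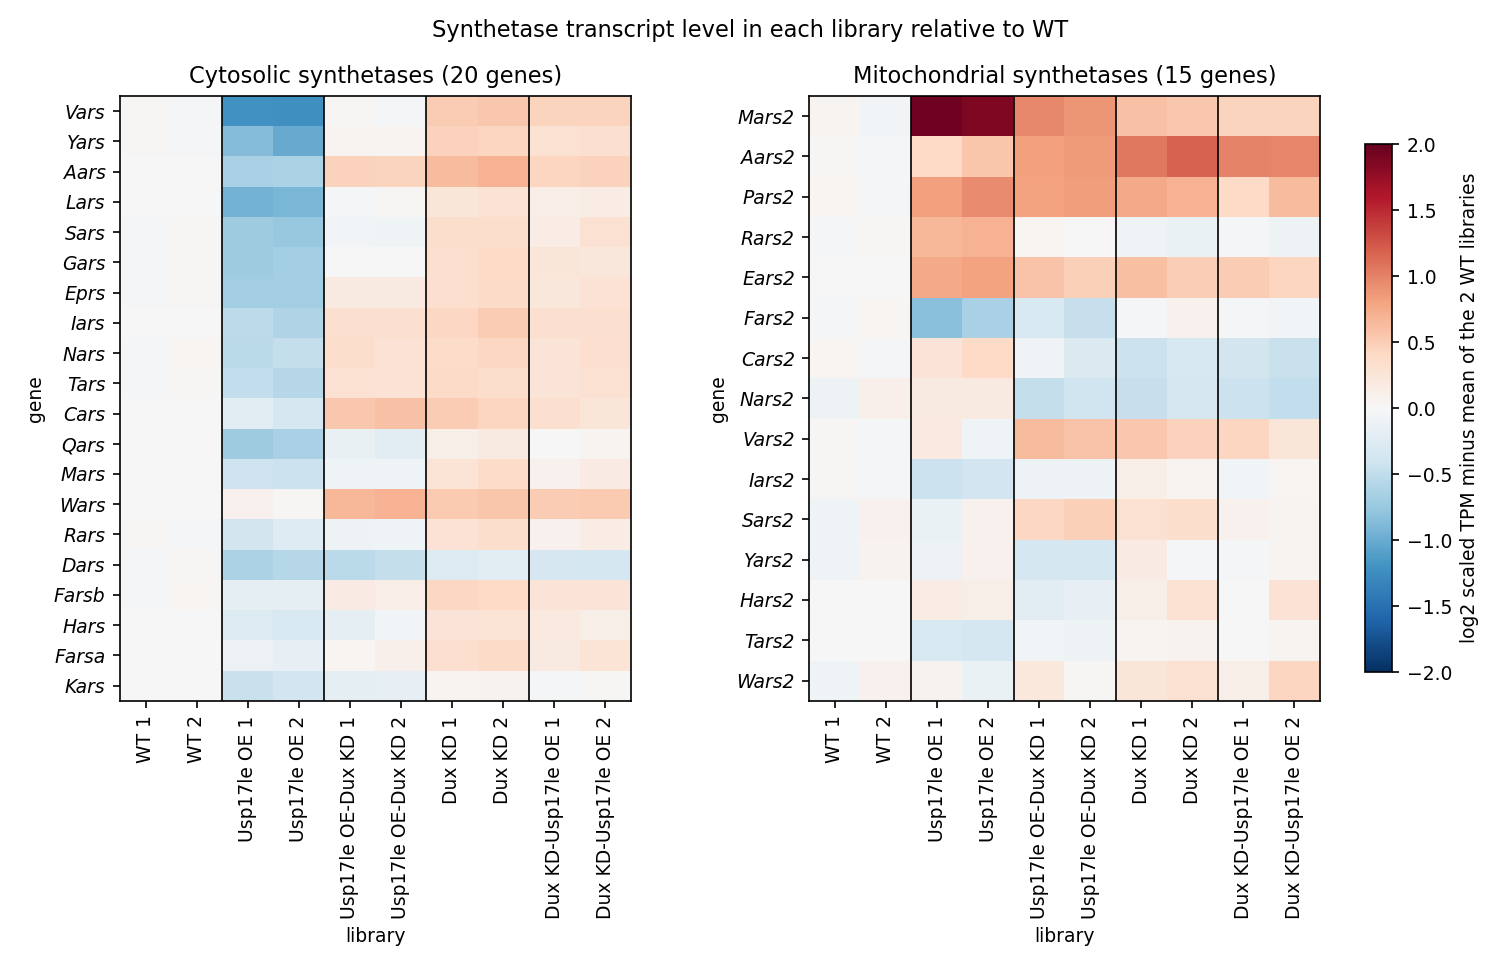
Log2 level of each of the 35 synthetase genes in each of the 10 libraries, relative to the mean of the 2 WT libraries; rows are genes, cytosolic left and mitochondrial right, columns are libraries by group, and colour is the difference in log2(scaled TPM + 0.1). The cytosolic rows are below WT in Usp17le OE for 19 of 20 genes, while Mars2 is the mitochondrial gene furthest above WT there, at 1.91.

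The cytosolic genes that differed most between groups were Vars, Yars, Aars, Lars, Sars and Gars, whose highest and lowest group means lay 2.10-fold (Gars) to 3.34-fold (Vars) apart. Vars, on chromosome 17 from 35000987 to 35016322 of mm10, encodes the valine enzyme, which docks on the elongation factor 1 complex. It measured 103.5 and 101.1 scaled TPM in WT, 44.3 and 43.9 with the plasmid, 103.7 and 100.48 with plasmid then hairpin, 146 and 149 with the hairpin alone, and 139 and 139 in the pair labelled Dux KD-Usp17le OE. The Usp17le OE pair was far below all other libraries, and WT and Usp17le OE-Dux KD overlapped. Yars, for tyrosine, on chromosome 4 from 129189760 to 129219607, stood at 129.7 and 126 in WT, 70.5 and 63.4 with the plasmid, 133 and 133 with plasmid then hairpin, 176 and 173 with the hairpin alone, and 159 and 160.1 in the pair labelled Dux KD-Usp17le OE. No 2 groups overlapped, though WT and Usp17le OE-Dux KD were close.

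Aars, for alanine, on chromosome 8 from 111033144 to 111057664, was measured at 299.5 and 295.5 scaled TPM in WT, 189 and 192 with the plasmid, 408 and 404 with plasmid then hairpin, 461 and 483 with the hairpin alone, and 401 and 409 in the pair labelled Dux KD-Usp17le OE. All 3 groups with the hairpin lay above WT, and Usp17le OE lay below it. Aars shares 14.29% of its exon bases with Exosc6 on the same strand, so part of its values may come from that gene. Lars, for leucine, whose enzyme is also known as a leucine sensor of the mTORC1 pathway, had 162 and 164 in WT, 84.7 and 86.8 with the plasmid, 161 and 165 with plasmid then hairpin, 192 and 200.2 with the hairpin alone, and 179 and 182 in the pair labelled Dux KD-Usp17le OE. The WT values fell inside the range of Usp17le OE-Dux KD. Sars, for serine, had 139.6 and 144 in WT, 87.2 and 83.8 with the plasmid, 137 and 134 with plasmid then hairpin, 182 and 181 with the hairpin alone, and 158 and 175 in the pair labelled Dux KD-Usp17le OE. Its groups did not overlap. Gars, for glycine, had 334 and 342 in WT, 206 and 209.9 with the plasmid, 341 and 337 with plasmid then hairpin, 426 and 446 with the hairpin alone, and 399.7 and 397 in the pair labelled Dux KD-Usp17le OE. As with Vars and Lars, WT and Usp17le OE-Dux KD overlapped and Usp17le OE was the lowest group.

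**Figure D2:**
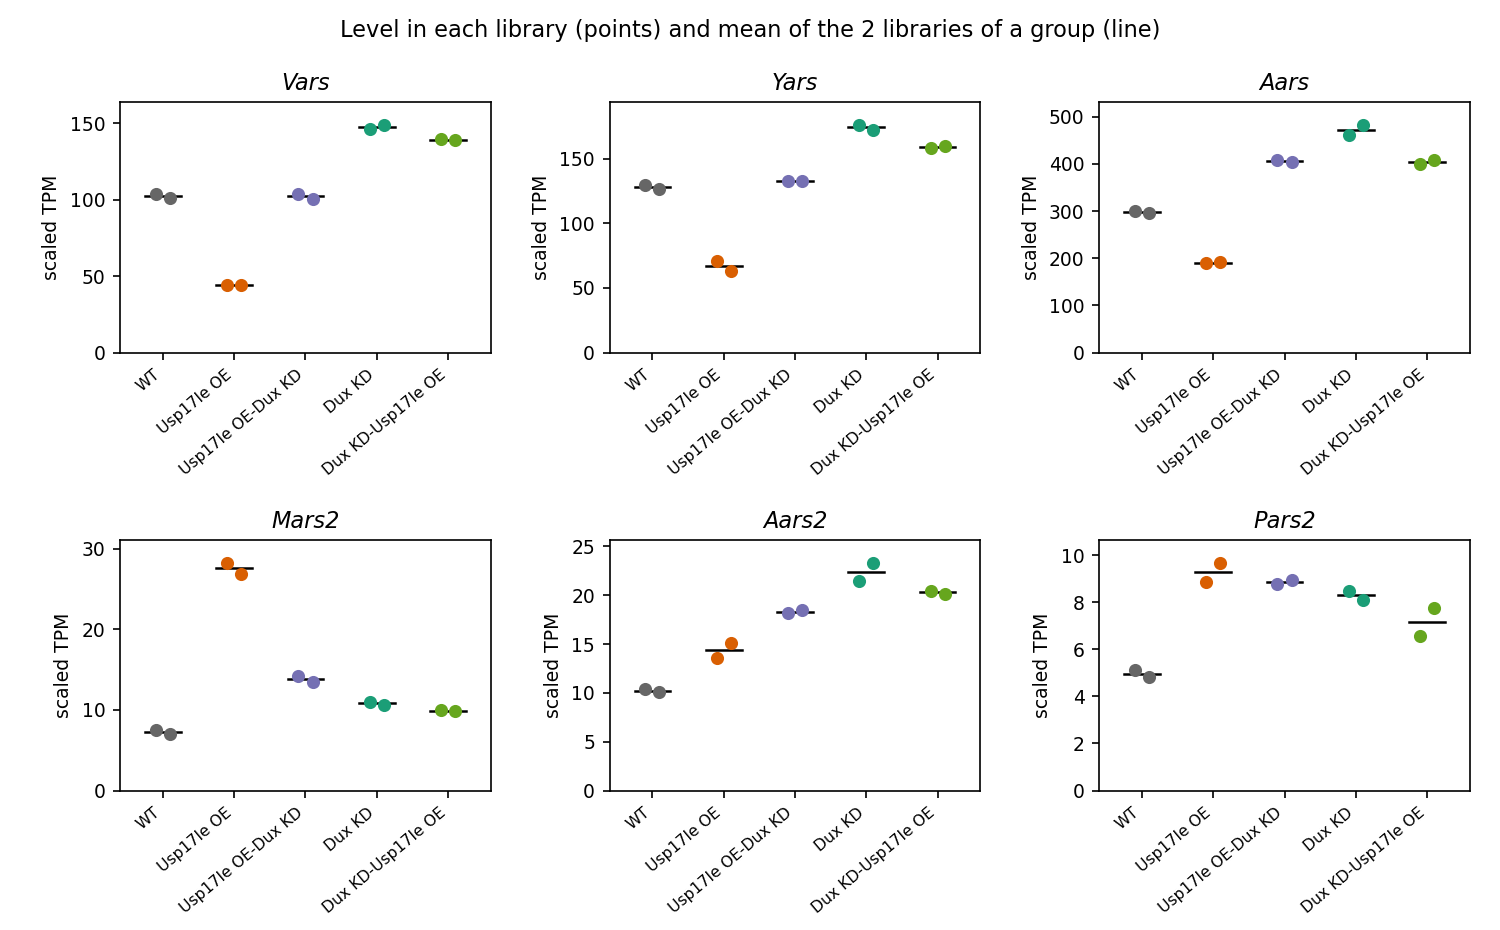
Scaled TPM of the cytosolic genes Vars, Yars and Aars and the mitochondrial genes Mars2, Aars2 and Pars2 by group; points are the 2 libraries of each group, the line their mean, and each vertical axis starts at 0. All 3 cytosolic genes have their lowest 2 libraries in Usp17le OE, whereas Mars2 has its highest 2 there, at 28.2 and 26.9.

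Among mitochondrial genes the widest ranges were those of Mars2, Aars2, Pars2, Rars2 and Ears2, at 3.75-fold for Mars2 down to 1.71-fold for Ears2. Mars2, for methionine, on chromosome 1 from 55237177 to 55248470, measured 7.55 and 6.998 scaled TPM in WT, 28.2 and 26.9 with the plasmid, 14.2 and 13.4 with plasmid then hairpin, 10.997 and 10.6 with the hairpin alone, and 9.92 and 9.91 in the pair labelled Dux KD-Usp17le OE. Its 5 groups did not overlap, with Usp17le OE highest and WT lowest. Aars2, the mitochondrial alanine enzyme, on chromosome 17 from 45506841 to 45520843, stood at 10.4 and 10.1 in WT, 13.6 and 15.1 with the plasmid, 18.2 and 18.5 with plasmid then hairpin, 21.5 and 23.3 with the hairpin alone, and 20.4 and 20.1 in the pair labelled Dux KD-Usp17le OE. WT was lowest and the hairpin groups highest, again with no overlap. Pars2, for proline, on chromosome 4 from 106651069 to 106655282, stood at 5.10 and 4.83 in WT, 8.86 and 9.66 with the plasmid, 8.76 and 8.94 with plasmid then hairpin, 8.48 and 8.09 with the hairpin alone, and 6.54 and 7.77 in the pair labelled Dux KD-Usp17le OE. Every other group was above WT, and Usp17le OE and Usp17le OE-Dux KD overlapped.

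Rars2, for arginine, had 51.3 and 53.5 scaled TPM in WT, 83.4 and 84.9 with the plasmid, 53.9 and 52.2 with plasmid then hairpin, 49.6 and 47.9 with the hairpin alone, and 51.5 and 48.9 in the pair labelled Dux KD-Usp17le OE. Only the Usp17le OE pair stood apart. Ears2 charges mitochondrial tRNAs with glutamate, including the tRNA for glutamine, which an amidotransferase then converts. It had 4.10 and 4.11 in WT, 6.99 and 7.22 with the plasmid, 6.17 and 5.73 with plasmid then hairpin, 6.30 and 5.81 with the hairpin alone, and 5.88 and 5.53 in the pair labelled Dux KD-Usp17le OE. WT was the lowest group, Usp17le OE the highest, and the 3 hairpin groups overlapped.

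In Usp17le OE cells the cytosolic synthetase genes were lower than in WT and the mitochondrial ones were mixed. Of the 20 cytosolic genes 19 fell and 0 rose, and the counts were the same at an unadjusted p under 0.05 in limma and in limma voom on the recovered reads. With TPM as deposited, 14 fell and 1 rose, and Farsa and Farsb, the phenylalanine subunits, turned to 0.13 and 0.086, neither called. On the scaled values the exception was Wars, for tryptophan, with a change of 0.056 and an adjusted p of 0.234. Of all genes tested, 32.9% were called higher and 32.9% lower, or 45.5% and 20.9% with TPM as deposited. The median change of the cytosolic list was -0.55, against 0.00 over all genes. Vars changed by -1.21 ± 0.04 (SE; limma adjusted p = 2.8e-09), Yars by -0.94 ± 0.05 (9.73e-08), Lars by -0.93 ± 0.04 (1.72e-08) and Sars by -0.73 ± 0.05 (5.52e-07). The smallest fall was that of Farsa, the catalytic one of these subunits, at -0.14, and its call was lost with the length correction (adjusted p = 0.0837) and without WT replicate 1 (adjusted p = 0.0688), WT replicate 2 (0.0588) or Usp17le OE replicate 2 (0.0888).

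All 8 genes of the complex fell in Usp17le OE (median -0.58), and of 12 genes listed as linked to Atf4 (Aars, Cars, Eprs, Gars, Iars, Lars, Mars, Nars, Sars, Tars, Wars and Yars) 11 fell (median -0.60). The 8 other cytosolic genes (Dars, Farsa, Farsb, Hars, Kars, Qars, Rars and Vars) all fell as well, with a median of -0.36. This split, used again below, rests on a list chosen with earlier results of these data known. Absence from the list does not show that a gene is not a target of Atf4, and no window could be searched for Hars, Rars and Vars. With TPM as deposited the counts were 7 lower for the complex, 10 lower and 1 higher for the Atf4-linked genes and 4 lower for the others. Of all genes 32.9% were called lower on the scaled values and 20.9% with TPM as deposited. Atf4 itself went from 188 and 203 scaled TPM in WT to 123 and 117 in Usp17le OE, a change of -0.71 (adjusted p = 3.99e-07). The sum of the fibroblast feeder markers was also lower in these libraries, as given above. Of the 9 tested of 15 listed, 5 were lower, 1 was higher and 3 were not called.

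Among the 15 mitochondrial genes, 6 rose and 3 fell in Usp17le OE against WT (10 and 1 with TPM as deposited), with a median change of 0.13. Over all genes 32.9% were called higher and 32.9% lower, or 45.5% and 20.9% with TPM as deposited. Mars2 rose by 1.91 ± 0.08 (limma adjusted p = 1.62e-08), or 3.75-fold, Pars2 by 0.89 ± 0.11 (3.84e-05) and Ears2 by 0.78 ± 0.10 (8.31e-05). Rars2 (0.68), Aars2 (0.48) and Cars2 (0.32), the last for cysteine, also rose. Fars2 fell by 0.74, Iars2 by 0.40 and Tars2 by 0.33, the genes for phenylalanine, isoleucine and threonine. Iars2 shares 24.18% of its exon bases with genes on the opposite strand (Rab3gap2 and 2010103J01Rik) and Fars2 10.72% (Lyrm4 and Nrn1), and reads were not counted by strand, so part of their values may come from those genes. Hars2, Nars2, Sars2, Vars2, Wars2 and Yars2 were not called.

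**Figure D3:**
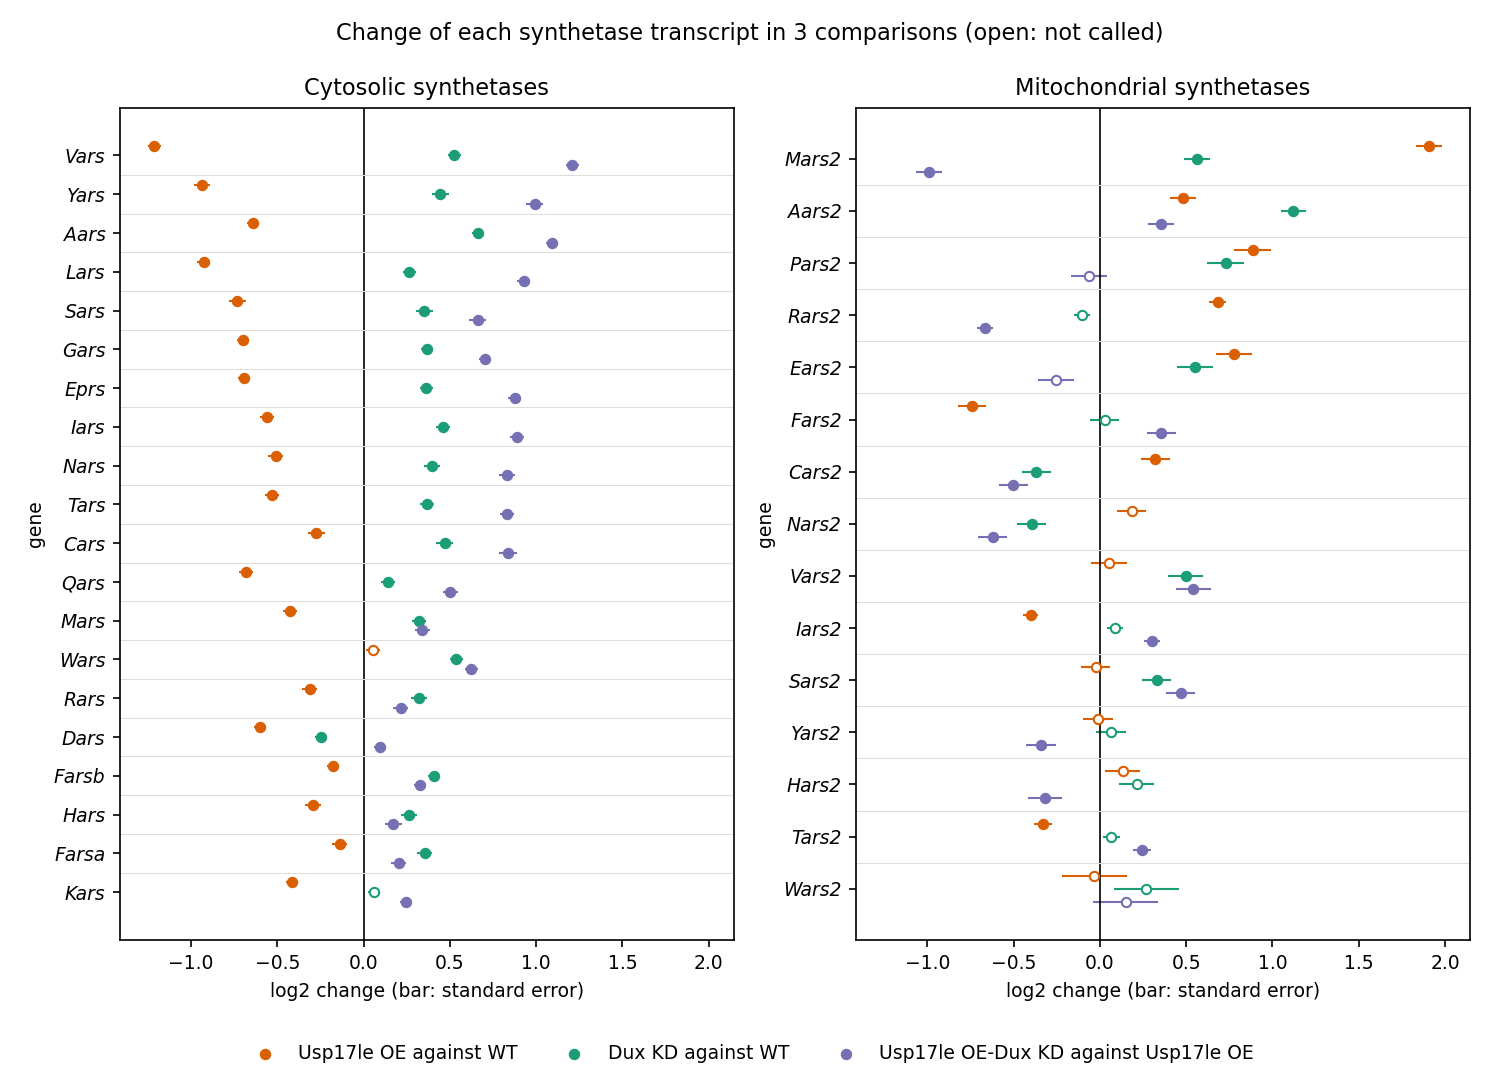
Change in log2(scaled TPM + 0.1) of each of the 35 genes for the plasmid alone, the hairpin alone (each against WT) and the hairpin added to plasmid cells (against Usp17le OE); points are estimates and bars 1 standard error from limma, with filled points for genes called at an adjusted p under 0.05. For the cytosolic genes 19 of 20 are called below 0 for the plasmid and 20 of 20 above 0 when the hairpin was added to it.

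With the Dux hairpin alone the cytosolic genes were higher than in WT. In Dux KD 18 of 20 rose and 1 fell, with a median change of 0.37, and all 20 rose with TPM as deposited. Over all genes 28.7% were called higher and 25.2% lower, or 51.4% and 10.7% with TPM as deposited. Aars rose by 0.66 ± 0.03 (limma adjusted p = 2.68e-07), Wars by 0.54 ± 0.04 (2.63e-06), Vars by 0.53 ± 0.04 (2.04e-06) and Cars, for cysteine, by 0.47 ± 0.05 (2.8e-05). Dars, for aspartate, fell by 0.25 (adjusted p = 0.000257) on the scaled values but rose by 0.15 on the deposited ones. Kars, the most abundant member, had a change of 0.062 (adjusted p = 0.157). Qars, for glutamine, at 0.14 lost its call without WT replicate 2 (0.0578) or Dux KD replicate 2 (0.0871). All 12 Atf4-linked genes rose (median 0.38), and of the 8 others 6 rose and Dars fell (median 0.29). Atf4 had 198 and 195 scaled TPM against 188 and 203 in WT, a change of 0.01 (adjusted p = 0.903), and its groups overlapped.

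With the hairpin alone 6 mitochondrial genes rose and 2 fell, with a median of 0.21, while 13 rose with TPM as deposited. The shares of all genes were 28.7% higher and 25.2% lower, or 51.4% and 10.7% with TPM as deposited. Aars2 rose by 1.12 ± 0.07 (limma adjusted p = 1.33e-06), Pars2 by 0.73 ± 0.11 (0.000236) and Mars2 by 0.56 ± 0.08 (0.00013). Ears2 (0.55), Vars2 (0.50), for valine, and Sars2 (0.33), for serine, rose too, though Sars2 lost its call without WT replicate 1 (0.0619). Nars2, for asparagine, fell by 0.39 and Cars2 by 0.37, though with TPM as deposited they stood at 0.0031 and 0.031, not called. Under the length correction Ears2 was not called (0.058). The comparisons of Usp17le OE and of Dux KD share the WT libraries.

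When the hairpin was added to Usp17le OE cells, all 20 cytosolic genes rose, and the count was the same at an unadjusted p under 0.05 in limma, in limma voom and with TPM as deposited. The median change was 0.68 where 29.6% of all genes were called higher and 30.6% lower (45.7% and 18.6% with TPM as deposited). The 4 largest rises were those of Vars at 1.21 ± 0.04 (limma adjusted p = 6.58e-09), Aars at 1.09 ± 0.03 (6.4e-09), Yars at 0.99 ± 0.05 (8.58e-08) and Lars at 0.93 ± 0.04 (2.28e-08). The rises of the 12 Atf4-linked genes had a median of 0.83, those of the 8 others 0.23 and those of the 8 complex genes 0.42. The Usp17le OE libraries serve in this comparison and in that with WT. Usp17le itself was lower once the hairpin was added, as given above, and the part of that fall was not tested. The rise of Dars was 0.10 and was lost without any library but Usp17le OE replicate 2 or Usp17le OE-Dux KD replicate 1 (adjusted p 0.0505 to 0.26), and that of Hars, for histidine, was 0.17 and was lost without Usp17le OE-Dux KD replicate 2 (0.0891). Atf4 rose from 123 and 117 to 162 and 167 scaled TPM, by 0.46 (1.04e-05).

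The mitochondrial genes split evenly under the hairpin in Usp17le OE cells, with 6 higher, 6 lower and a median of -0.06 (6 and 3 with TPM as deposited). All genes gave 29.6% higher and 30.6% lower (45.7% and 18.6% with TPM as deposited). Mars2 fell by 0.99 ± 0.08 (limma adjusted p = 1.6e-06), Rars2 by 0.67 ± 0.05 (1.1e-06) and Nars2 by 0.62 ± 0.08 (0.000101). Cars2 (-0.50), Yars2 (-0.34), for tyrosine, and Hars2 (-0.32), for histidine, fell as well. The Hars2 call was lost without Usp17le OE replicate 1 (0.0739), Usp17le OE replicate 2 (0.059) or Usp17le OE-Dux KD replicate 1 (0.084), and the Yars2 call without Usp17le OE replicate 2 (0.0651). Vars2, Sars2, Fars2, Aars2, Iars2 and Tars2 rose by 0.24 to 0.54, and under the length correction Tars2 (0.248) and Yars2 (0.326) were not called.

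The hairpin's effect was then compared between cells with and without the plasmid, as the change under the hairpin in Usp17le OE cells minus the change in Dux KD cells against WT. This difference, one of signed changes and not of their size, was above 0 for 14 cytosolic genes and below 0 for 0 (12 and 1 with TPM as deposited). At an unadjusted p under 0.05 in limma 14 were above and 1 below, limma voom called 14 and 0, and the median was 0.35. Usp17le stood at 28.7 and 35.6 TPM in Usp17le OE and at 11.1 and 10.6 in Usp17le OE-Dux KD. The part of that lower level in the difference was not tested. The Usp17le OE and WT libraries also serve in the comparison of Usp17le OE with WT. Over all genes 20.1% had a called difference above 0 and 24.4% below 0 (15.8% and 28.2% with TPM as deposited). Vars differed by 0.68 ± 0.05 (limma adjusted p = 7.9e-06), Lars by 0.66 ± 0.05 (9.01e-06), Yars by 0.55 ± 0.07 (0.000157) and Eprs, for glutamate and proline, by 0.51 ± 0.05 (3.42e-05). The Atf4-linked genes gave 10 of 12 calls above 0 (median 0.43), and the 8 others gave 4 (median 0.05). Farsa, Farsb, Hars, Mars, Rars and Wars were not called. Mars shares 68 exon bases with Ddit3 on the opposite strand.

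For the mitochondrial genes the difference ran mostly the other way, with 7 below 0, 2 above 0 and a median of -0.23 (7 and 0 with TPM as deposited). Over all genes 24.4% had a called difference below 0 and 20.1% above 0 (28.2% and 15.8% with TPM as deposited). Mars2 differed by -1.56 ± 0.11 (limma adjusted p = 3.72e-06), rising with the hairpin in WT cells and falling with it in plasmid cells. Ears2 differed by -0.80 ± 0.15 (0.00149) and Pars2 by -0.79 ± 0.15 (0.00186), and Aars2, Rars2, Hars2 and Yars2 were also below 0. The calls of Fars2, Iars2 and Yars2 were lost without single libraries. Fars2 lost it without any library but Usp17le OE replicate 2, Dux KD replicate 2 or Usp17le OE-Dux KD replicate 2 (adjusted p 0.0639 to 0.161). Iars2 lost it without WT replicate 1 (0.0676), Dux KD replicate 2 (0.0817), Usp17le OE-Dux KD replicate 1 (0.0593) or replicate 2 (0.0525), and Yars2 without WT replicate 1 (0.0822), Usp17le OE replicate 2 (0.087), Dux KD replicate 1 (0.0726), Usp17le OE-Dux KD replicate 1 (0.0532) or replicate 2 (0.0558).

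**Figure D4:**
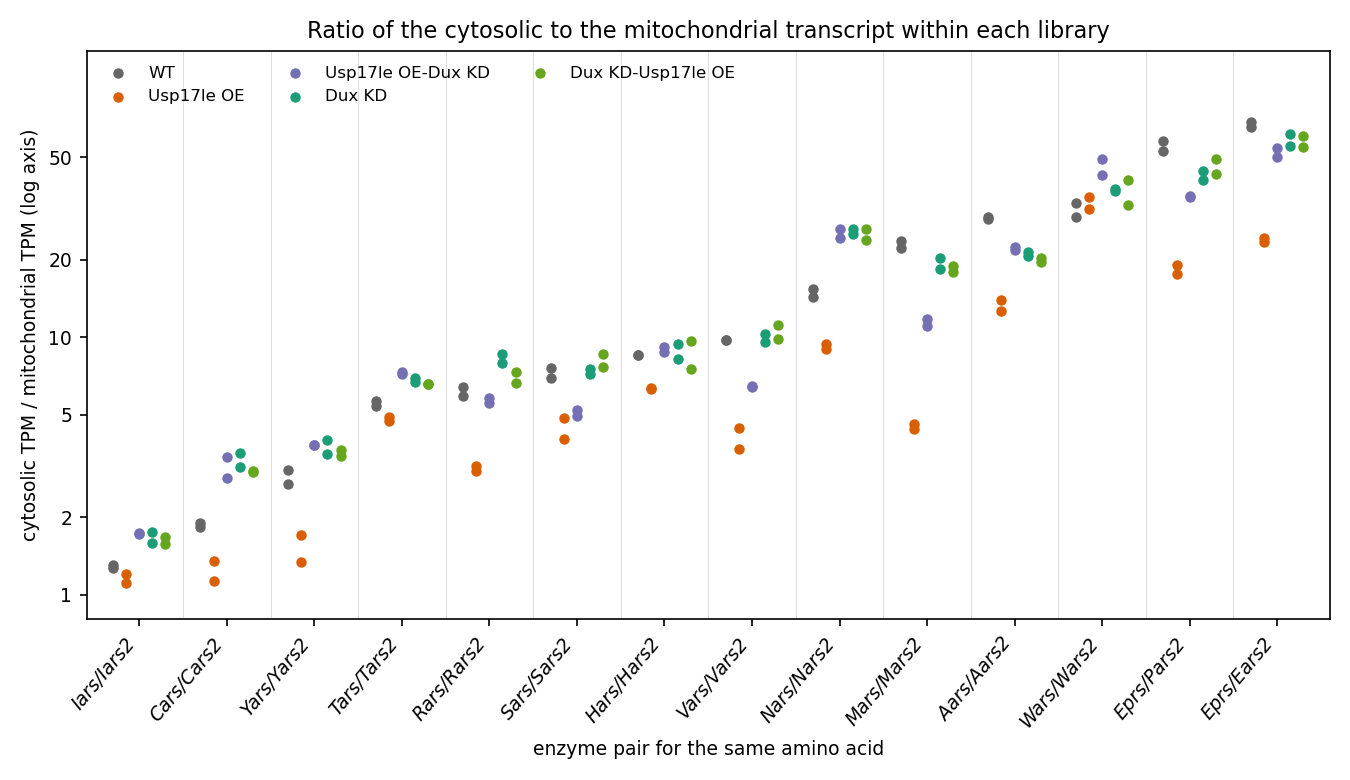
Ratio of the cytosolic to the mitochondrial gene's TPM within each library for 14 amino acids, by group, on a log axis; each point is 1 library, coloured by group. In Usp17le OE 13 of the 14 ratios lie below WT, for example 4.52 against 23.0 for Mars to Mars2.

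The ratio of the cytosolic to the mitochondrial gene for the same amino acid does not depend on the scaling, since both values come from 1 library. It could be formed for 14 pairs, with Eprs in 2 of them, over Ears2 and over Pars2. Hars and Hars2 share 195 exon bases on opposite strands. In Usp17le OE it was lower than in WT for 13 pairs, with a median change of -0.81 in log2 units, and higher for Wars to Wars2. The Wars to Wars2 values overlapped those of WT (31.5 and 35.2 against 33.3 and 29.3). Mars to Mars2 was 23.0 ± 0.91 (SD, n = 2) in WT, 4.52 ± 0.14 with the plasmid, 11.4 ± 0.46 with plasmid then hairpin, 19.4 ± 1.3 with the hairpin alone and 18.4 ± 0.72 in the pair labelled Dux KD-Usp17le OE. With plasmid then hairpin the ratio lay between those of Usp17le OE and WT. Nars to Nars2, for asparagine, was 14.9 ± 0.75, 9.21 ± 0.30, 25.3 ± 1.5, 25.8 ± 0.90 and 25.2 ± 1.7 in the same order of groups, above WT wherever the hairpin was present. Iars to Iars2 stayed between 1.15 ± 0.065 in Usp17le OE and 1.73 ± 0.0049 in Usp17le OE-Dux KD, so the isoleucine pair was the closest to equal of the pairs named here. Under the hairpin in Usp17le OE cells the ratio was higher in 14 of 14 pairs (median 0.81), and under the hairpin alone it was higher in 10 and lower in 4 (median 0.15). These counts compare group means and were not tested. Under the hairpin alone Hars to Hars2 overlapped WT (9.43 and 8.26 against 8.53 and 8.52), as did Sars to Sars2 and Vars to Vars2.

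Against WT, Usp17le OE-Dux KD cells showed 8 cytosolic genes higher and 4 lower (median 0.03), but 19 higher and 0 lower with TPM as deposited and 8 higher and 7 lower with the length correction. All genes gave 30% higher and 30.9% lower, and 59.5% and 11% with TPM as deposited, so the split of the cytosolic genes in this comparison depends on the scaling. Wars (0.68 ± 0.04, limma adjusted p = 2.73e-07), Cars (0.56 ± 0.05, 5.17e-06) and Aars (0.45 ± 0.03, 1.39e-06) rose. Dars was lower by -0.50 ± 0.04 (1.21e-06) on the scaled values and reversed to 0.064 on the deposited ones, as did Hars to 0.45, Kars to 0.40 and Qars to 0.39. The Atf4-linked genes gave 7 of 12 higher and 0 lower, at an unadjusted p under 0.05 in limma and in voom as well, and the 8 others 1 higher and 4 lower. Vars, Lars and Gars were not called (adjusted p = 0.943, 0.988 and 0.914). The call of Hars (-0.12) was lost without any library but Usp17le OE-Dux KD replicate 2 (adjusted p 0.0506 to 0.337). Of the mitochondrial genes 6 rose and 3 fell (12 and 0 with TPM as deposited; median 0.02), led by Mars2 at 0.91 ± 0.08 (3e-06), Aars2 at 0.83 ± 0.07 (5.03e-06) and Pars2 at 0.82 ± 0.11 (7.73e-05), and Yars2 lost its call without WT replicate 2 (0.0535). The 3 that fell, Fars2, Nars2 and Yars2, reversed with TPM as deposited to 0.18, 0.12 and 0.21, not called. Markers of primitive endoderm were highest in this group.

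The libraries labelled Dux KD-Usp17le OE were close to Dux KD. Of the cytosolic genes 4 were lower and 0 higher, with 18 lower and 0 higher at an unadjusted p under 0.05 in limma, 15 and 0 in limma voom, and 16 and 0 with TPM as deposited, and the median change was -0.12. Over all genes 3.41% were called higher and 1.95% lower, or 2.88% and 8.3% with TPM as deposited. Aars fell by 0.22 ± 0.03 (limma adjusted p = 0.00856), Rars, for arginine, by 0.20 ± 0.04 (0.0316), Mars by 0.19 ± 0.04 (0.0286) and Farsb, the other phenylalanine subunit, by 0.15 ± 0.03 (0.0373). None of the 15 mitochondrial genes was called by limma, where 2 were lower and 0 higher at an unadjusted p under 0.05, 1 was lower in limma voom and 2 were lower with TPM as deposited (median -0.08). The number of members called was 0 without Dux KD replicate 2 or without Dux KD-Usp17le OE replicate 1 and 1 without either Usp17le OE-Dux KD library or without Dux KD-Usp17le OE replicate 2. Without Dux KD replicate 2 the adjusted p was 0.0602 for Aars, 0.181 for Rars, 0.172 for Mars and 0.149 for Farsb, and without Dux KD-Usp17le OE replicate 1 it was 0.0884, 0.205, 0.197 and 0.184. Aars kept its call in the other settings named here, in which Rars, Mars and Farsb had 0.05 to 0.147, and Farsb also lost its call without Dux KD replicate 1 (0.0996).

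Against WT the same libraries again showed most cytosolic genes higher, 17 with 1 lower (median 0.25; 19 and 0 with TPM as deposited), where 23.9% of all genes were called higher and 20.8% lower (44.8% and 7.62% with TPM as deposited). Wars rose by 0.51 ± 0.04 (limma adjusted p = 7.08e-06), Aars by 0.44 ± 0.03 (5.88e-06) and Vars by 0.44 ± 0.04 (1.19e-05), and Dars fell by 0.34 ± 0.04 (4.8e-05). Of the mitochondrial genes 5 rose and 2 fell (12 and 0 with TPM as deposited, 3 and 2 with the length correction; median 0.06). Aars2 rose by 0.98 ± 0.07 (6.17e-06), Pars2 by 0.51 ± 0.11 (0.00292) and Ears2 by 0.47 ± 0.10 (0.00447), the last not called under the length correction (0.12). The smaller rises were less firm. Without WT replicate 1 the calls of Hars (0.0787), Lars (0.0561), Mars (0.0653), Rars (0.0607) and Vars2 (0.0644) were lost. WT replicate 2 carried those of Hars (0.0795), Mars (0.125), Rars (0.234) and Vars2 (0.0905). Leaving out Dux KD-Usp17le OE replicate 1 ended those of Hars (0.147), Rars (0.0533) and Vars2 (0.151), and leaving out its replicate 2 those of Lars (0.0574), Mars (0.192) and Rars (0.251). The call of Rars also ended without Usp17le OE-Dux KD replicate 1 (0.0593) or replicate 2 (0.0594).

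Compared directly, the libraries labelled Dux KD-Usp17le OE had 13 cytosolic genes higher and 2 lower than Usp17le OE-Dux KD (median 0.16), a split that turned to 1 higher and 8 lower with TPM as deposited. All genes gave 23.5% higher and 15.7% lower, and 7.97% and 37.4% with TPM as deposited. Vars was higher by 0.45 ± 0.04 (limma adjusted p = 1.6e-05), Sars by 0.30 ± 0.05 (0.00105) and Hars by 0.27 ± 0.05 (0.00131), and Cars was lower by -0.28 ± 0.05 (0.00165). The 8 cytosolic genes not on the Atf4-linked list were all higher (median 0.18), and the listed ones were 5 higher and 2 lower (median 0.04). On the deposited values these became 1 higher and 1 lower, and 0 higher and 7 lower. Of the mitochondrial genes 3 were higher and 4 lower (0 and 9 with TPM as deposited; median -0.02), with Mars2 at -0.47 ± 0.08 (0.00086), Sars2 at -0.38 ± 0.08 (0.00554) and Yars2 at 0.36 ± 0.09 (0.00831). Leaving out 1 library ended 10 of these calls. Dars (0.0517), Fars2 (0.0755) and Yars2 (0.0582) each lost theirs without 1 library, which was Usp17le OE-Dux KD replicate 1, Usp17le OE-Dux KD replicate 2 and Dux KD-Usp17le OE replicate 2 in that order. Farsa and Lars lost theirs without Usp17le OE-Dux KD replicate 1 (0.0868 and 0.0688) or Dux KD-Usp17le OE replicate 2 (0.106 and 0.0649), and Wars without Usp17le OE-Dux KD replicate 2 (0.0586) or Dux KD-Usp17le OE replicate 1 (0.0509). Hars2 lost its call without Usp17le OE-Dux KD replicate 1 (0.0993) or replicate 2 (0.0613) or Dux KD-Usp17le OE replicate 2 (0.168). Farsb did so without any library of Usp17le OE or of either group compared (0.0657 to 0.14), Cars2 without any WT or Dux KD library, Usp17le OE-Dux KD replicate 1 or either library labelled Dux KD-Usp17le OE (0.056 to 0.355), and Pars2 without WT replicate 2, either Dux KD library, either Usp17le OE-Dux KD library or Dux KD-Usp17le OE replicate 1 (0.0503 to 0.28). Across all comparisons of groups Wars2 was the only member with no call.

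The partners of tRNA charging moved in both directions. This list of 20 genes holds the complex's scaffold, the tRNA exporter, and enzymes that finish tRNAs or edit, modify or release charged ones. In Usp17le OE against WT 9 rose and 6 fell (median 0.16), where 32.9% of all genes were called in each direction, led by falls of 2.02 for Dtd1, a deacylase that removes D-amino acids from tRNA (limma adjusted p = 3.26e-09), of 1.01 for Elac1, an endonuclease of tRNA 3' ends (6.58e-05), and of 0.83 for Ptrhd1 (0.000768). Mtfmt, which formylates the methionyl-tRNA made by Mars2, rose by 0.82 ± 0.09 (1.84e-05). In Dux KD against WT 4 rose and 10 fell (median -0.20; 28.7% and 25.2% of all genes), with Xpot, the tRNA exporter, up by 0.85 (2.68e-07) and Pstk (-0.94), a kinase of the selenocysteine pathway, and Ptrhd1 (-0.86) lower. With the hairpin added to Usp17le OE cells 3 rose and 11 fell (median -0.31; 29.6% and 30.6% of all genes), among them Prorsd1 (-1.69), Pstk (-0.99) and Trnt1 (-0.95), which adds the CCA end to tRNAs. With TPM as deposited the counts in these 3 comparisons were 13 and 6, 10 and 3, and 5 and 7, so the direction of the list in Dux KD turns with the scaling. The scaffold gene Aimp1 changed by -0.45, -0.39 and -0.30 in the same 3 comparisons, and Eef1e1 by 0.18, -0.39 and -0.81.

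On the scaled values most elongation factor genes were lower in Usp17le OE, with fewer falls on the deposited ones. Of 9 genes 8 fell (32.9% of all genes fell; median -0.54; 5 and 1 with TPM as deposited), with Eef2, which moves the ribosome along, at -1.05 ± 0.03 (limma adjusted p = 4.37e-09), Eef1a1, which delivers charged tRNAs, at -0.69 (9.14e-08), Gfm2, which recycles mitochondrial ribosomes, at -0.67 (3.02e-06) and Eef1g, a subunit of the elongation factor 1 complex, at -0.61 (2.88e-08). In Dux KD against WT 3 rose and 4 fell (6 and 1 with TPM as deposited), where 28.7% and 25.2% of all genes did. Tufm, the mitochondrial counterpart of Eef1a1, rose by 0.51 (6.2e-06), and Eef1a1 (-0.53) and the exchange factor genes Eef1b2 (-0.98) and Eef1d (-0.51) fell. Under the hairpin in Usp17le OE cells 5 rose and 3 fell (6 and 1 with TPM as deposited; 29.6% and 30.6% of all genes), Eef2 rising by 0.89 and Tufm by 0.63 and Eef1b2 falling by 1.00. In Usp17le OE-Dux KD against WT 2 rose and 7 fell (6 and 3 with TPM as deposited; 30% and 30.9% of all genes).

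The amino acid and stress response genes moved in both directions. Of the 29 genes tested of 30 listed, 18 fell and 6 rose in Usp17le OE against WT (median -0.71; 17 and 8 with TPM as deposited), beside 32.9% of all genes in each direction. Ddit3, the transcription factor CHOP, changed by -3.37 ± 0.14 (limma adjusted p = 1.3e-07), Ddit4, an mTORC1 inhibitor, by -3.04 ± 0.08 (1.62e-09), Nupr1, a stress-induced nuclear protein, by -2.95 ± 0.08 (3.09e-09) and Stc2, a secreted glycoprotein, by -2.10 ± 0.09 (2.23e-08). In Dux KD against WT 13 rose and 6 fell (median 0.11; 23 and 2 with TPM as deposited), beside 28.7% and 25.2% of all genes. Chac1, which degrades glutathione, rose by 1.71 (1.85e-06) and Sesn2, a leucine sensor, by 1.00 (5.04e-07), but Ddit3 (-1.55) and Ddit4 (-1.36) fell. When the hairpin was added to Usp17le OE cells 21 rose and 1 fell (median 0.72; 27 and 0 with TPM as deposited; 29.6% and 30.6% of all genes), with Nupr1 at 2.55, Stc2 at 2.04, Vldlr, a lipoprotein receptor, at 1.54 and Pck2, which makes phosphoenolpyruvate in mitochondria, at 1.46. For the pair labelled Dux KD-Usp17le OE against Dux KD, Ddit4 rose by 0.38 (0.026), and Slc7a5, an amino acid transporter (-0.22, 0.0134), and Asns, which makes asparagine (-0.16, 0.0274), fell, 3 calls in all.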

How the data were processed

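Per the labels and methods, poly(A)-selected RNA was sequenced, reads were trimmed with Trim Galore, aligned to mm10 with HISAT2 and counted per gene with featureCounts (versions not given in the sources used here), and the authors deposited TPM for 24370 gene symbols in 10 libraries. Counting used unique reads without strand. TPM multiplied by gene length gave whole reads for 100% of values within 0.01, so depth is known. TPM were divided by a median-of-ratios factor per library. Genes at 0.5 TPM or more in at least 2 libraries (14706) were tested on log2(scaled TPM + 0.1) with limma 3.58.1 (trend and robust options; statmod 1.5.0, R 4.3.3), all 10 libraries in 1 fit with 5 residual degrees of freedom, two-sided, and p-values of each comparison were adjusted by Benjamini-Hochberg across these genes. A fold change on this scale understates the change of low genes. The study's own test models counts, so limma was used on these values in its place, with its voom form on the recovered reads as an alternative. The others were TPM as deposited, another pseudocount, no filter, a length correction, no trend and robust options, fits of only the groups compared, the replicate block and leaving out each library. A fit without the libraries labelled Dux KD-Usp17le OE was added after seeing the data. The scripts were tested on simulated data.

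The genes and lists were chosen with earlier results of these data known. All 35 members were named. Values in every library were given for the 6 cytosolic and 5 mitochondrial members with the widest range of group means, changes with errors for up to 4 cytosolic and 3 mitochondrial called members per comparison, and up to 4 called genes of each other list. Gene positions came from GENCODE M21 (GRCm38), and upstream sequences from RefSeq (GRCm38.p6). Figures were drawn with matplotlib 3.10.9 in Python 3.11.15. No column was left out. Some named items are not reported here.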

Additional observations from a re-analysis of the deposited data

Results flagged for a closer look

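The effect of the Dux hairpin differed between cells with and without the Usp17le plasmid for 23 of the 35 synthetase genes, by limma's test of that difference at an adjusted p under 0.05, where 20.1% of all genes tested had a called difference above 0 and 24.4% below 0. The differences are in log2 units, the change with the plasmid minus the change without it. Among the cytosolic genes it was 0.68 for Vars, 0.66 for Lars, 0.55 for Yars, 0.51 for Eprs, 0.46 for Tars, 0.43 for Aars, 0.43 for Iars, 0.43 for Nars, 0.37 for Cars, 0.36 for Qars, 0.34 for Dars, 0.34 for Gars, 0.31 for Sars and 0.18 for Kars. Among the mitochondrial genes it was -1.56 for Mars2, -0.80 for Ears2, -0.79 for Pars2, -0.77 for Aars2, -0.56 for Rars2, -0.53 for Hars2 and -0.41 for Yars2, and above 0 for Fars2 (0.33) and Iars2 (0.21). The Dux KD and WT libraries were not transfected with the Usp17le plasmid, and the sources leave the line of each group unsettled, so a difference of line cannot be told apart from one of plasmid here. Among the plasmid cells, Usp17le was at 28.7 and 35.6 TPM without the hairpin and at 11.1 and 10.6 with it. An effect of the hairpin therefore cannot be told apart from one of less Usp17le there.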

How the results depend on the processing

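Of 5105 recomputed values of called members and listed genes, 4819 kept their direction and their side of the threshold, 261 kept their direction and lost their call, and 25 reversed. With TPM as deposited 23 reversed. In Usp17le OE against WT these were Farsa (0.13) and Farsb (0.086), in Dux KD against WT Dars (0.15), Cars2 (0.031) and Nars2 (0.0031), and in Usp17le OE-Dux KD against WT Dars (0.064), Hars (0.45), Kars (0.40), Qars (0.39), Fars2 (0.18), Nars2 (0.12), Yars2 (0.21) and Eef1g (0.098). Between the combined groups, as the pair labelled Dux KD-Usp17le OE minus the other, they were Dars (-0.10), Farsa (-0.10), Farsb (-0.16), Gars (-0.030), Kars (-0.11), Lars (-0.12), Mars (-0.053), Qars (-0.061), Rars (-0.047) and Yars (-0.0012). With the length correction Eprs (-0.081) and Hars (0.098) reversed in Usp17le OE-Dux KD against WT, neither called. Total numbers of members and of genes called, both directions together, moved by over 1.5 times only for the libraries labelled Dux KD-Usp17le OE against Dux KD. Counts split by compartment and direction moved further. Those with TPM as deposited are given beside each comparison. With the length correction 7 in place of 4 cytosolic genes were lower in Usp17le OE-Dux KD against WT, and 3 in place of 5 mitochondrial genes were higher for the pair labelled Dux KD-Usp17le OE against WT. Without the filter 2 in place of 4 mitochondrial genes were lower between the combined groups. Mitochondrial genes with a difference of the hairpin effects above 0 numbered 2, but 0 or 1 without the filter, without the trend and robust options, with only the groups compared, with the replicate block and with voom. The comparison of the libraries labelled Dux KD-Usp17le OE with Dux KD had 4 members called. Its count was 18 with TPM as deposited, 2 without the filter and 2 with the length correction. It was 0 without the trend and robust options, 0 with only the groups compared, 16 with voom, and 0 to 5 when 1 library was left out. All genes called in it were 789, but 1644 with TPM as deposited, 525 without the filter, 54 without the trend and robust options, 226 with only the groups compared and 1753 with voom, and 66 to 853 when 1 library was left out (66 without Dux KD-Usp17le OE replicate 1, 139 without Dux KD replicate 2, 145 without Dux KD-Usp17le OE replicate 2); the cause was not tested. In the other comparisons, leaving out 1 library gave 27 to 28 members called for Usp17le OE against WT, 26 to 27 for Dux KD against WT, 30 to 31 for Usp17le OE-Dux KD against Usp17le OE, 19 to 21 for Usp17le OE-Dux KD against WT, 20 to 25 for the libraries labelled Dux KD-Usp17le OE against WT, 15 to 22 for them against Usp17le OE-Dux KD, and 20 to 22 for the difference of the hairpin effects. Without the libraries labelled Dux KD-Usp17le OE, a choice made after seeing the data, Usp17le OE against WT had 19 cytosolic genes lower, Dux KD against WT had 18 higher and 1 lower, and Usp17le OE-Dux KD against Usp17le OE had 19 higher, as Dars lost its call (0.0799); Fars2 (0.0705) lost its call in the difference of the hairpin effects. Replicate numbers did not pair the libraries, since all 10 correlations of same-numbered deviations lay between -0.053 and 0.047; with a replicate block 3 members were called between Dux KD and the pair given the plasmid after it, where Farsb had an adjusted p of 0.0515, and the other calls lost were Hars (0.0622) in Usp17le OE-Dux KD against WT, Cars2 (0.0618) and Pars2 (0.0511) between the combined groups, and Fars2 (0.0521) in the difference of the hairpin effects. Every member had at least 128 reads in every library, the lowest being Wars2.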
